A study of Mus musculus with 653 samples.

Results

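The 9 genes described here are the 7 globin genes *Hba-x*, *Hba-a1*, *Hba-a2*, *Hbb-y*, *Hbb-bh1*, *Hbb-bs* and *Hbb-bt*, with the transcription factor genes *Bcl11a* and *Sox6*. They were chosen by name, as the alpha- and beta-type globins of embryo and adult and factors that switch between them, and all 9 were found among the 54195 genes of the count table. Single cells had been sorted from E10.5 and E13.5 mouse livers and sequenced as separate Smart-seq2 libraries. All embryos came from male Lgr5-EGFP-IRES-creERT2 mice on a C57BL/6 background crossed with MF1 females, in which GFP and a tamoxifen-dependent Cre recombinase are expressed from the *Lgr5* locus. The 653 cells formed 4 groups, with 414 cells at E10.5 (49.03% bulk and 50.97% Lgr5-GFP+) and 239 at E13.5 (66.53% bulk and 33.47%, or 80 cells, Lgr5-GFP+). Every cell was sorted as Liv2+, CD31- and CD45-, and the Lgr5-GFP+ cells were sorted for GFP as well, so endothelial cells and most leukocytes should have been removed while erythroid cells lacking CD45 were not. A cell held between 463347 and 2279700 counted reads, each cell was deposited as a sample of its own, and the labels call all of them hepatoblasts.

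Haemoglobin is a tetramer of alpha-type and beta-type chains, and each family is encoded by a cluster of genes that are used in turn during development. Primitive red cells of the yolk sac use embryonic genes, of which *Hba-x* encodes the zeta chain and *Hbb-y* and *Hbb-bh1* encode the epsilon-y and beta-h1 chains. Definitive red cells of the fetal liver use the adult genes *Hba-a1*, *Hba-a2*, *Hbb-bs* and *Hbb-bt*. *Bcl11a* and *Sox6* encode DNA-binding proteins known to repress the embryonic beta-type genes in definitive cells. *Klf1* encodes an erythroid transcription factor that activates adult beta-globin, and more than 10 *Klf1* reads in a cell was the rule that defined erythroid cells here (Klf1+ cells).

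The gene clusters lie on 2 chromosomes of GRCm38. The alpha cluster is on the plus strand of chromosome 11, with *Hba-x* (ENSMUSG00000055609) from 32276400 to 32278116, *Hba-a1* (ENSMUSG00000069919) from 32283511 to 32284465 and *Hba-a2* (ENSMUSG00000069917) from 32296489 to 32297298. The beta cluster is on the minus strand of chromosome 7, with *Hbb-y* (ENSMUSG00000052187) from 103851749 to 103853216, *Hbb-bh1* (ENSMUSG00000052217) from 103841637 to 103843164, *Hbb-bs* (ENSMUSG00000052305) from 103826534 to 103828096 and *Hbb-bt* (ENSMUSG00000073940) from 103812524 to 103813996. *Bcl11a* (ENSMUSG00000000861) lies on the plus strand of chromosome 11 from 24078056 to 24174123, and *Sox6* (ENSMUSG00000051910) on the minus strand of chromosome 7 from 115470872 to 116038796. All 9 are annotated as protein coding.

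The promoters of 5 globins are shown so that embryonic and adult genes can be set side by side. Each window holds the 120 bases before the RefSeq start (GRCm38.p6), and capitals mark 5 short motifs found on either strand. They are CACCC, a core that KLF1 recognises, GATAA, which GATA1 binds, CCAAT and the TATA box TATAA, which are general promoter elements, and TGACCA, which BCL11A is known to bind. In the windows ATTGG is CCAAT read from the opposite strand, and TGACCA and CCAAT overlap in *Hbb-y*. The Ensembl gene models of these 5 genes begin upstream of the RefSeq start. The windows are at chr11:32276480-32276599 (plus strand) for *Hba-x*, chr11:32283552-32283671 (plus) for *Hba-a1*, chr7:103853208-103853327 (minus) for *Hbb-y*, chr7:103827929-103828048 (minus) for *Hbb-bs* and chr7:103813924-103814043 (minus) for *Hbb-bt*.
Hba-x: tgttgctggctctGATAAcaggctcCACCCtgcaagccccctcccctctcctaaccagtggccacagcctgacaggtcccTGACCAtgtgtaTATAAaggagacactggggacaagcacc
Hba-a1: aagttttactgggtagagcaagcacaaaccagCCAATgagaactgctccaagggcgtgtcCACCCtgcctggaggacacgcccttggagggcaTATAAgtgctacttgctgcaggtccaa
Hbb-y: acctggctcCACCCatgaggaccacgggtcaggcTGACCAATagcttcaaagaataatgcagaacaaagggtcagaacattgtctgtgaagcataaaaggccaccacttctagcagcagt
Hbb-bs: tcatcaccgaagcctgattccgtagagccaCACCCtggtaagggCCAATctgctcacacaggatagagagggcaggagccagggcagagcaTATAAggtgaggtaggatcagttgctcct
Hbb-bt: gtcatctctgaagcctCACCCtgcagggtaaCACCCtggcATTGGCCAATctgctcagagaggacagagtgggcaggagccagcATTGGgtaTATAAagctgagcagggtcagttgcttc

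Of the 9 genes, 8 had a promoter in the RefSeq table used, and *Hbb-bh1* had none. The window of *Hba-a2* shares an unbroken run of all but 3 of its 120 bases with that of *Hba-a1* and is not printed. The longest run shared by the *Hbb-bs* and *Hbb-bt* windows was 14 bases. Over the full promoter entries of 300 bases, CACCC was present in 57.5% of all 32851 promoters in the table, the CCAAT motif in 37.4%, the TATAA motif in 24.9%, the GATAA motif in 25.4% and the TGACCA motif in 13.6%. Among the globins with an entry, CACCC and GATAA occurred in all 6, CCAAT in every one except *Hba-x*, and TATAA in every one except *Hbb-y*. TGACCA occurred in the embryonic *Hba-x* and *Hbb-y* promoters, and in none of the 4 adult globin promoters. These matches are descriptions of letters, and binding was not measured.

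Klf1+ cells were 36 of 414 at E10.5 and 130 of 239 at E13.5. They made up 17.2% of the E10.5 bulk group (35 cells, exact 95% binomial interval 12.3 to 23.2) and 79.2% of the E13.5 bulk group (72.1 to 85.3), but 0.474% (1 cell) and 5% (4 cells) of the Lgr5-GFP+ cells. At E10.5 the 2 cells just outside the threshold held 10 and 9 *Klf1* reads and the 2 just inside held 11 and 75. At E13.5 those just outside held 5 each and those just inside 13 and 27. Of 15 erythroid marker genes other than globins and *Klf1*, at least 3 had more than 10 reads in 31 of the 36 Klf1+ cells at E10.5 and in all but 3 of the 130 at E13.5. Hepatoblast markers (8 genes, summed) were at 24.6 and 32.5 reads per 1000000 (RPM) in these cells, against 2990 and 280 in the remaining cells, so the hepatoblast label went against the markers of the Klf1+ cells and they are called by their rule. The labels name no animal or litter, so each stage counted as 1 sample, cells were not used as replicates, and no test between stages was made. Intervals cover counting error only. Library pools were the batches against which each difference was set. The authors reported batch effects between biological replicates, and the labels do not link pools to replicates. Differences between pools may therefore not be technical alone.

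Before any comparison, the reads of 2 embryonic globins were found to follow library pool and index. More than 10 reads of *Hba-x* were present in all but 8 cells of pool 1 (94.03%), and the same was true of *Hbb-y*, against 7.90% of the 519 cells of the other pools for each gene. *Hba-x* ranged from 0 to 1907 reads in the cells of pool 1, with a median of 162.5, and *Hbb-y* from 0 to 6100 with a median of 137.5. In pools 2, 3 and 5 the median cell had 0 reads of both. In pool 1 this held for 31 of 32 Klf1+ cells and 93.1% of the other cells for each of the 2 genes, as the plot of embryonic globin reads by library pool shows. *Hba-x* and *Hbb-y* were the 2 genes of all 54195 with the largest excess in pool 1, followed by *Hba-a1*, an adult alpha globin, at 96.3% of pool 1 cells against 36.4% elsewhere.

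A second pattern was seen within pool 4. All 28 of its cells whose library carried the i5 index i513 or i517 or the i7 index i707 or i710 had more than 10 reads of *Hba-x*, of *Hbb-y* and of *Hbb-bh1*. Among the other cells of that pool, 3 had more than 10 reads of all 3 genes. The 28 cells held between 11 and 99 *Hba-x* reads, 19 or more *Hbb-y* reads with a median of 59, and between 11 and 1178 *Hbb-bh1* reads. These 3 genes ranked highest of all genes by their excess in the 28 cells, and the next gene differed by 34.3 percentage points against 89.3 or more. Libraries with the same 4 indices had more than 10 *Hba-x* reads in 1 of 46 cells of pool 2, 0 of 27 of pool 3 and 2 of 27 of pool 5. The source of these reads was not tested. The levels of the embryonic globins and the shares of embryonic reads are therefore given over all cells and over the 491 cells outside pool 1 and the 28 cells of pool 4 (hereafter the retained cells), which included 30 Klf1+ cells at E10.5 and 92 at E13.5. Other values are over all cells unless the retained cells are named. The 4 indices were picked after their values had been seen.

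**Figure D1:**
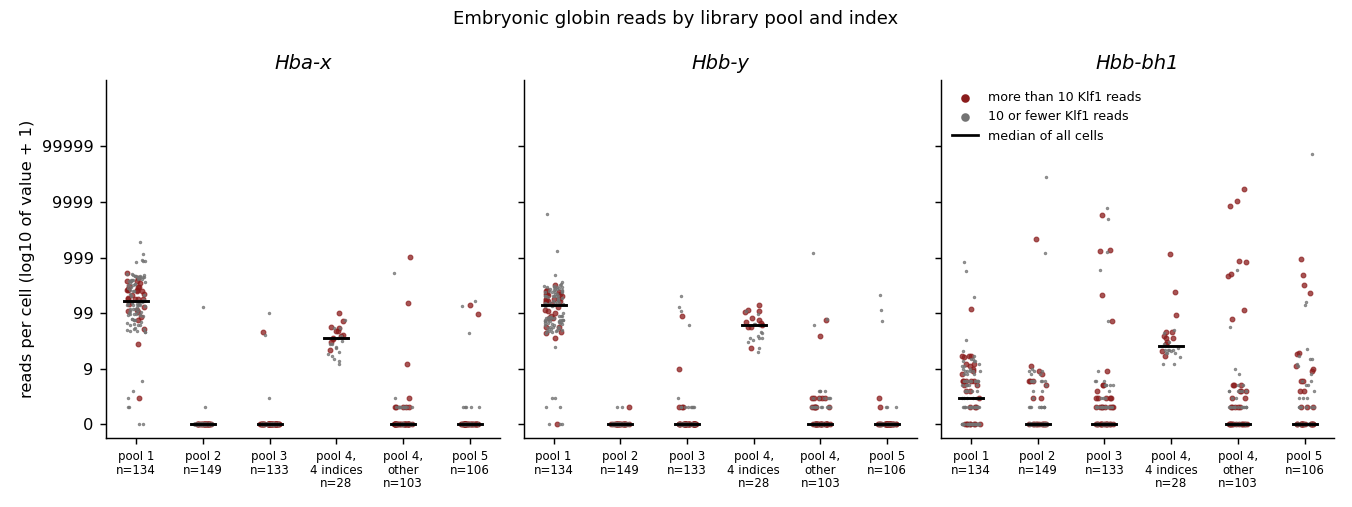
Reads per cell of *Hba-x*, *Hbb-y* and *Hbb-bh1* (vertical axis, log10 of reads + 1, labelled in reads) by library pool, with pool 4 divided by index. Each point is a cell, dark red with more than 10 *Klf1* reads and grey otherwise, and black bars are medians. Nearly all pool 1 cells lie above 10 reads of *Hba-x* and *Hbb-y* whatever their *Klf1* reads, and all 28 cells of the 4 pool 4 indices lie above 10 reads of all 3 genes.

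In Klf1+ cells the adult globins were 18.7- to 24.2-fold higher at E13.5 than at E10.5, and *Hbb-bh1* was 61.8-fold lower. Over all cells, 6 of the 9 genes were 2-fold or more higher at E13.5 and 1 was lower, where 9.53% of the 9289 genes tested were as much higher and 19.4% as much lower. In the retained cells 5 of 8 were higher and 2 lower, with 11.1% and 18.7% of genes so called (29% and 29.9% of genes were past 2-fold in either direction in the 2 sets), and *Hbb-y* was under the 5 RPM required. *Hba-x* and *Hbb-y* were the members whose category differed. A sum over cells cannot tell fewer cells using a gene from less RNA in each, so single-cell values are given beside the sums.

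The adult beta-type genes *Hbb-bs* and *Hbb-bt* encode the major adult beta chains in mice. *Hbb-bs* ranged over Klf1+ cells from 1.70 to 1638 RPM at E10.5 with a median of 38.02, and from 1.15 to 64065 RPM at E13.5 with a median of 86.6. The ranges of the stages overlapped over their whole lower part, and the difference lay in the upper tail. Summed over cells, *Hbb-bs* was at 117.9 RPM (95% Poisson interval 114.8 to 121.2) and 2848 RPM (2840 to 2857), 24.2-fold higher, with log2 ratios between 3.62 and 5.82 within the 3 pools that held at least 5 Klf1+ cells of each stage (pools 3, 4 and 5). *Hbb-bt* ranged from 0 to 1083 RPM (median 27.8) at E10.5 and from 0.793 to 33591 (median 38.7) at E13.5. Its summed level was 106.9 RPM at E10.5 and 2343 RPM at E13.5, with pool log2 ratios between 3.72 and 6.48. The medians of single cells thus differed far less than the sums. At E13.5 the 5 Klf1+ cells with most adult globin reads held 35.1% of the adult globin reads of all Klf1+ cells.

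The adult alpha-type genes were also higher at E13.5. Over all cells their medians differed by a larger ratio than those of the adult beta-type genes. Pool 1, which had the excess of *Hba-a1* described above, held 30 Klf1+ cells of E13.5 and 2 of E10.5. Its part in these medians was not tested. *Hba-a1* ranged from 0 to 1016 RPM (median 16.4) at E10.5 and from 0.724 to 30869 (median 118.8) at E13.5, and *Hba-a2* from 0 to 169.02 (median 1.92) and from 0 to 5589 (median 10.7). Summed, *Hba-a1* was at 89.5 and 1669 RPM and *Hba-a2* at 12.02 and 258 RPM. Their log2 ratios within pools were between 3.50 and 6.10, and between 3.72 and 5.57. Without pool 1 and the 28 cells the 4 adult genes were 18.8-, 21.95-, 24.3- and 23.8-fold higher at E13.5 (*Hba-a1*, *Hba-a2*, *Hbb-bs* and *Hbb-bt*), so their difference was as large in the retained cells. At E13.5, 26 of the 130 Klf1+ cells (20%) had 10000 RPM or more of summed globins, against 1 of 36 at E10.5 (2.78%).

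**Figure D2:**
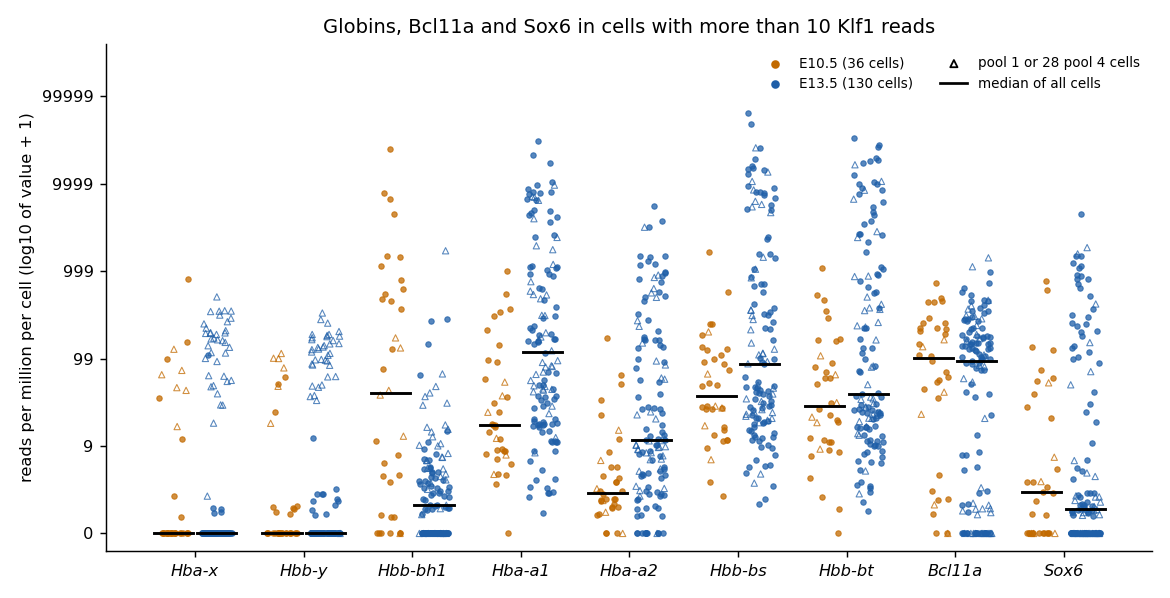
Level of each gene in single cells with more than 10 *Klf1* reads (vertical axis, RPM as log10 of value + 1, labelled in RPM) at E10.5 (orange, 36 cells) and E13.5 (blue, 130 cells). Filled circles are retained cells, open triangles are cells of pool 1 or of the 4 pool 4 indices, and black bars are medians over all cells. At E13.5 *Hbb-bs* reaches 64065 RPM, *Hbb-bt* 33591 and *Hba-a1* 30869, *Hbb-bh1* reaches 24718 at E10.5, and nearly all *Hba-x* and *Hbb-y* values well above 0 at E13.5 are triangles.

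*Hbb-bh1*, the beta-h1 gene, had the most summed reads of the globins at E10.5, although *Hbb-bs* (32 cells), *Hbb-bt* (31) and *Hba-a1* (25) passed 10 reads in more of the Klf1+ cells. It ranged from 0 to 24718 RPM over the 36 Klf1+ cells with a median of 39.8, and had more than 10 reads in 21 of them (58.3%, 40.8 to 74.5). At E13.5 it ranged from 0 to 1714 RPM with a median of 1.13, and had more than 10 reads in 19 of 130 cells (14.6%, 9.03 to 21.9). The highest E13.5 cell was one of the 28 pool 4 cells set apart. Summed levels were 1140 RPM (1130 to 1150) and 18.5 RPM (17.7 to 19.2), with log2 ratios of -6.56, -5.46 and -2.80 in pools 3, 4 and 5. In the retained cells it was present above 10 reads in 16 of 30 cells and 5 of 92, and was at 1299 and 9.87 RPM, a 131.5-fold difference.

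A small number of cells carried most of these reads. A single E10.5 Klf1+ bulk cell of pool 4 held 16907 *Hbb-bh1* reads, 33.2% of those of all E10.5 Klf1+ cells. Beside them it held 2 reads of *Hbb-bs*, 15 of *Hbb-bt*, 375 of *Hba-a1* and 0 of *Hba-x* and *Hbb-y*. The next 2 Klf1+ cells, also of pool 4, held 10441 and 8324 *Hbb-bh1* reads, and a Klf1+ cell of pool 3 held 5774. These 4 cells accounted for 81.4% of the *Hbb-bh1* reads of E10.5 Klf1+ cells. All 4 had more than 500 *Klf1* reads and more than 300 *Gata1* reads, where *Gata1* encodes the central erythroid transcription factor, and up to 280 *Bcl11a* reads.

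*Hba-x*, the zeta-globin gene, gave opposite directions in the 2 sets of cells. Over all Klf1+ cells it was at 37.02 RPM at E10.5 and 50.5 RPM at E13.5 with a median cell at 0 in both stages, whereas in the retained cells it was at 33.7 RPM (31.9 to 35.5) and 1.42 RPM (1.20 to 1.68). Of the retained Klf1+ cells, 5 of 30 at E10.5 (16.7%, 5.64 to 34.7) and 1 of 92 at E13.5 (1.09%, 0.0275 to 5.91) had more than 10 *Hba-x* reads. The 5 E10.5 cells held between 11 and 1003 reads with a median of 95, and all 5 also had at least 460 *Hbb-bh1* reads. The cell with 1003 reads was 1 of the 4 Klf1+ cells with most *Hbb-bh1*. It held 76.6% of the *Hba-x* reads of the retained E10.5 Klf1+ cells.

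*Hbb-y*, the epsilon-y gene, behaved in the same way. Its summed level was 13.9 RPM at E10.5 and 36.9 RPM at E13.5 over all Klf1+ cells, but 5.32 RPM (4.62 to 6.10) and 0.252 RPM (0.163 to 0.372) in the retained cells. More than 10 reads were found in 3 of 30 retained cells at E10.5, with 37, 75 and 88 reads. At E13.5 the count was 0 of 92, which allows a share of up to 3.26%, and the highest cell held 9 reads. In all 130 Klf1+ cells of E13.5 the count was 37. The *Hbb-y* signal of those Klf1+ cells thus came from pool 1 and the 28 cells of pool 4.

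Genes were compared in Klf1+ cells as RPM per 1000 uniquely mappable 50-base windows of the transcripts. This scale allows for length and for sequence shared between paralogues. On it *Hbb-bh1* had the highest summed level at E10.5 at 2022. The adult globins followed at 424 (*Hba-a1*), 392 (*Hbb-bt*), 352 (*Hbb-bs*) and 182.1 (*Hba-a2*), with *Hba-x* at 41.7, *Hbb-y* at 23.8, *Bcl11a* at 12.4 and *Sox6* at 4.56. At E13.5 the order was *Hbb-bt* at 8583, *Hbb-bs* at 8503, *Hba-a1* at 7908 and *Hba-a2* at 3913, followed over all cells by *Hbb-y* at 63.2, *Hba-x* at 56.9 and *Hbb-bh1* at 32.7. *Hbb-bs* and *Hbb-bt* were not separated by the spread between pools, since *Hbb-bt* had more raw RPM in pool 3 (4006 against 3925) and fewer in the other 4 pools at E13.5. In the retained E13.5 Klf1+ cells *Hbb-bh1* was at 17.5, *Hba-x* at 1.602 and *Hbb-y* at 0.431 on this scale. *Bcl11a* and *Sox6*, at 12.01 and 13.7 there, had more reads per window than *Hba-x* and *Hbb-y*.

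The paralogues are read with a limit. Only reads with a unique alignment had been counted, and the share of 50-base windows that occur in no other gene was 27.7% for *Hba-a1*, 10.7% for *Hba-a2*, 46.8% for *Hbb-bs* and 41.7% for *Hbb-bt*, against 100% for *Hba-x*, *Hbb-y* and *Hbb-bh1*. *Hba-a1* and *Hba-a2* shared 550 windows, and *Hbb-bs* and *Hbb-bt* 381. Raw read shares therefore understate adult against embryonic globins. Within the adult beta pair, *Hbb-bs* took 54.9% of the reads of E13.5 Klf1+ cells with at least 20 reads. In single cells it took between 0.221% and 98.8%. In 20 of the 120 cells 1 gene had over 90% of the pair's reads, *Hbb-bs* in 9 and *Hbb-bt* in 11. This was so in 3 of the 51 cells with 20 or more but under 200 reads of the pair. It was so in 15 of the 34 with 200 or more but under 2000, and in 2 of the 35 with 2000 or more. *Hba-a1* took 86.6% of the adult alpha pair at E13.5 and *Hba-a2* passed 90% in 0 cells with at least 20 reads, which allows a share of up to 2.88%.

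The embryonic share of beta-type reads, *Hbb-y* and *Hbb-bh1* over all 4 beta-type genes, was 83.7% (83.4 to 83.98) in Klf1+ cells at E10.5 and 1.05% (1.03 to 1.08) at E13.5. Within pools 1 to 5 it was 39.7%, 55.6%, 78.3%, 89.3% and 62.2% at E10.5 and 4.17%, 0.0194%, 0.116%, 2.05% and 0.345% at E13.5, so that no pool of E13.5 reached any pool of E10.5, although pools 1 and 2 held 2 and 4 Klf1+ cells of E10.5. Over retained cells the shares were 84.2% and 0.171%. With *Hbb-bh1* as the only embryonic gene they were 83.5% and 0.354%. Weighting each cell equally instead of each read gave 44.8% and 14.2%, because the cells with many reads were mostly embryonic at E10.5 and almost wholly adult at E13.5.

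Single cells at E10.5 were spread over the whole scale. Of the 35 Klf1+ cells with at least 20 beta-type reads, 17 were over 50% embryonic (48.6%, 31.4 to 66.01), and the median cell was at 46.6%. The share was under 10% in 12 cells, from 10% to 90% in 17 and over 90% in 6. In the 29 retained cells 13 were over 50%, none lay between 21.2% and 55.1%, and the share went with the number of reads. Of the 10 retained cells with 20 or more but under 200 beta-type reads, 0 were mostly embryonic, which with so few cells allows a share of up to 30%, against 8 of 13 with 200 or more but under 2000 and 5 of 6 with 2000 or more. At E13.5, 16 cells (13.2%, 7.75 to 20.6) were mostly embryonic over all cells, but 1 of 83 retained cells was (1.20%, 0.0305 to 6.53), at 66.4%. None of the 26 retained E13.5 cells with 2000 or more reads exceeded 5.11%.

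**Figure D3:**
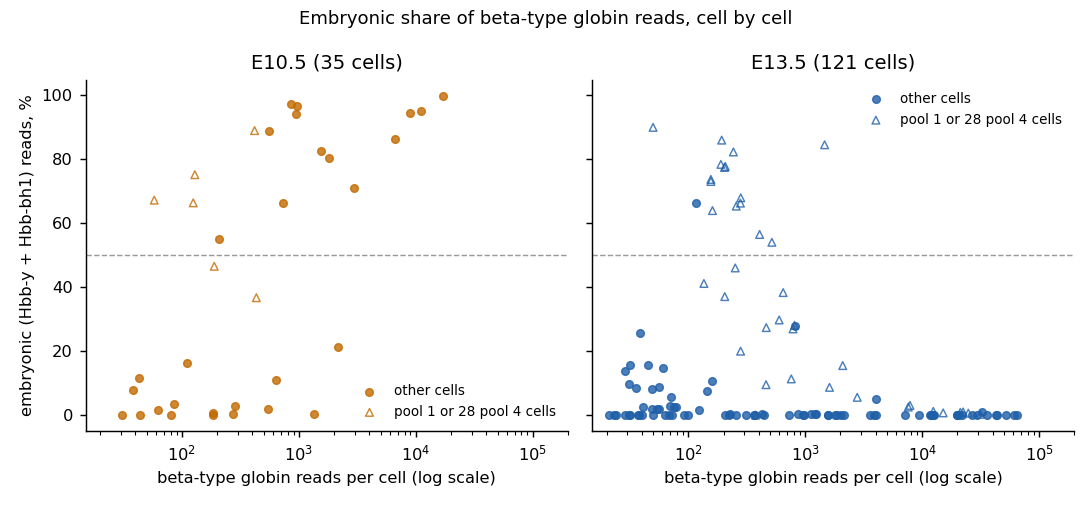
Percentage of beta-type globin reads from *Hbb-y* and *Hbb-bh1* (vertical axis) against the number of beta-type reads (horizontal axis, log scale) in single cells with more than 10 *Klf1* reads and at least 20 beta-type reads, at E10.5 (left) and E13.5 (right). Filled circles are retained cells, open triangles are cells of pool 1 or of the 4 pool 4 indices, and the dashed line marks 50%. Retained E10.5 cells lie at or below 21.2% or at or above 55.1%, and all but 1 retained E13.5 cell lie at or below 27.98%.

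The alpha family gave a lower embryonic share at E10.5. *Hba-x* made up 26.7% (25.6 to 27.9) of alpha-type reads at E10.5 and 2.55% (2.50 to 2.61) at E13.5 in Klf1+ cells, and 23% and 0.0658% in retained cells. Without the cell with most *Hba-x* reads the E10.5 share was 13.95%, without pool 4 it was 10.95%, and without pool 3 it was 37.9%. Of 18 retained E10.5 cells with at least 20 alpha-type reads, 2 were mostly embryonic, beside 13 of 29 for beta-type reads. Per unique window the alpha share at E10.5 was 6.44% and the beta share 73.3%.

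Adult alpha and beta levels went together across E13.5 cells, with a Spearman rho of 0.85 over 130 Klf1+ cells and 0.47 over 36 cells at E10.5. *Hbb-bh1* and summed adult globins had a rho of 0.50 over the 36 E10.5 cells and 0.08 over the 130 of E13.5. These are descriptions over cells that share pools and stages. The genes most like the summed adult globins across the Klf1+ cells of both stages were *Prdx2*, a red cell peroxiredoxin (rho 0.74), *Mgst3* (0.71), *Fth1*, the ferritin heavy chain (0.68), *Blvrb*, a biliverdin reductase (0.66), and *Alad*, an enzyme of haem synthesis (0.65), among 2870 genes detected in enough cells. *Prdx2*, *Mgst3*, *Fth1* and *Blvrb* were among the 5 nearest in the retained cells too. For the summed embryonic globins no gene passed 0.34, and the 5 nearest genes in all cells (*Ubb*, *Mrpl42*, *Ndufa5*, *Utp11* and *Eno1b*) and in retained cells (*2210016F16Rik*, *Cuta*, *Tspan32*, *Rps2* and *Odc1*) shared none.

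The switch factors differed from one another. *Bcl11a* was at 160 RPM (156.7 to 164.2) in Klf1+ cells at E10.5 and 153.6 RPM (151.6 to 155.7) at E13.5, a log2 ratio of -0.06 with pool values of -0.18, 0.34 and -1.05. It ranged from 0 to 733 RPM (median 99.7) at E10.5 and from 0 to 1423 RPM (median 93.7) at E13.5. More than 10 reads were present in 27 of 36 cells (75%, 57.8 to 87.9) and 84 of 130 (64.6%, 55.8 to 72.8), intervals that overlap. No stage difference beyond the pools was therefore seen for *Bcl11a*, and the retained cells gave 174.8 and 155.5 RPM.

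*Sox6* was at 67.9 RPM (65.5 to 70.4) at E10.5 and 170 RPM (167.8 to 172.1) at E13.5, a log2 ratio of 1.32. The pools gave 0.78, 0.73 and 10.88, the last with 0.118 RPM in the 6 E10.5 cells of pool 5, and 2 of the 3 pools were thus under 2-fold. The share of cells with more than 10 reads was alike, at 11 of 36 (30.6%, 16.3 to 48.1) and 39 of 130 (30%, 22.3 to 38.7). The median cell was at 1.95 and 0.899 RPM and the highest at 779 and 4546 RPM, so the higher sum came from the cells that had *Sox6*. The retained cells gave 76.03 and 203.8 RPM. The log2 ratio was under 1 without pool 2 (0.94), without pool 5 (0.92) and when any *Klf1* read defined the cells (0.12). Of the *Sox6* reads of Klf1+ cells, a single cell held 48.4% at E10.5 and another 18.01% at E13.5. Both factors passed 10 reads in 9 of 36 cells at E10.5 and 31 of 130 at E13.5, and neither did in 7 and 38.

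**Figure D4:**
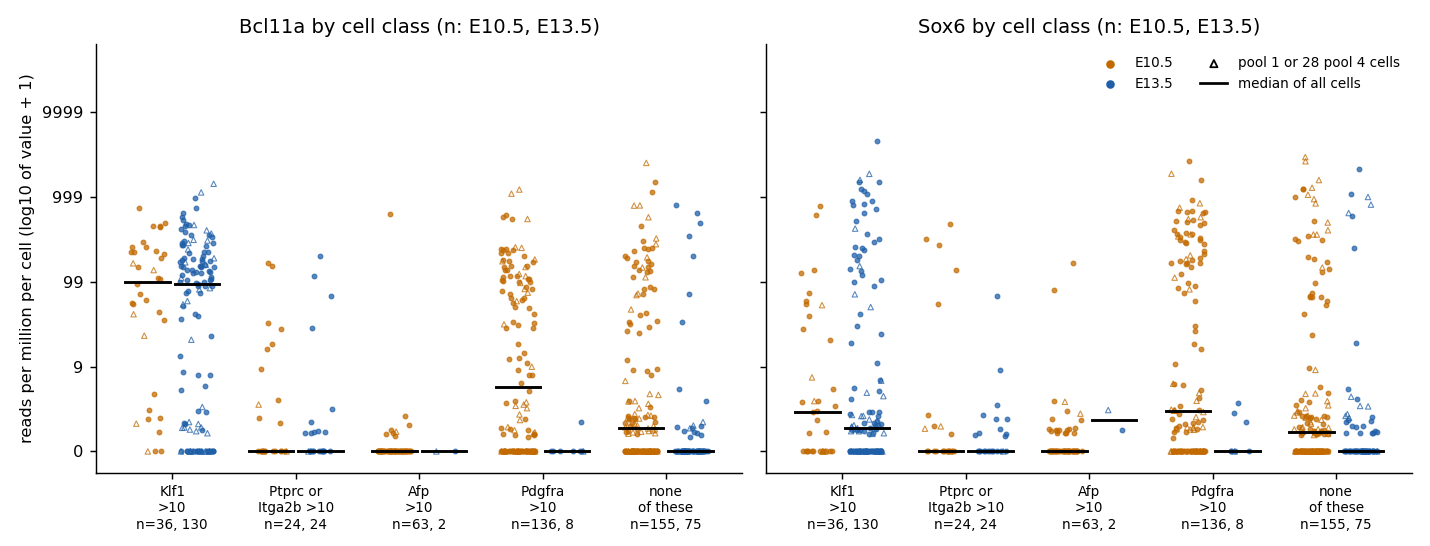
*Bcl11a* (left) and *Sox6* (right) in single cells (vertical axis, RPM as log10 of value + 1, labelled in RPM) by cell class, at E10.5 (orange) and E13.5 (blue). Classes were assigned in order from left to right, n gives cells at E10.5 and E13.5, open triangles are cells of pool 1 or of the 4 pool 4 indices, and black bars are medians. *Bcl11a* and *Sox6* occur outside Klf1+ cells, most often in E10.5 cells with *Pdgfra* reads.

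Across cells, *Sox6* went with globin level at E13.5, whereas *Bcl11a* did not. The Spearman rho with summed globin RPM over 130 Klf1+ cells was 0.51 for *Sox6* and -0.05 for *Bcl11a*, and over the 92 retained cells 0.58 and -0.08. At E10.5 the values over 36 cells were -0.05 and 0.18. With the embryonic share of beta-type reads *Bcl11a* had a rho of -0.32 over 29 retained cells at E10.5 and 0.03 over 83 at E13.5, and *Sox6* -0.13 and -0.12. The genes most like *Sox6* included *Mgst3* (0.45), and the gene most like *Bcl11a* was *Mrpl47*, a mitochondrial ribosomal protein gene (0.45). At E13.5 globin level also went with *Klf1* (0.55) and against *Kit*, the progenitor receptor (-0.49).

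Values of maturity and progenitor markers stood beside the globin difference, and their part in the globin difference was not tested. *Slc4a1*, the band 3 anion exchanger of late red cells, was at 1.95 RPM in Klf1+ cells at E10.5 and 89.6 RPM at E13.5. *Kit* was at 97.4 and 66.4, with a median cell at 58 and 0.944, and *Gata2*, a progenitor factor, at 41.7 and 17.04. *Myb*, another progenitor factor, was at 88.8 and 97.1 summed, with a median cell at 47.6 and 6.57. *Klf1*, by which the cells were chosen, was at 872 and 1528 RPM. The 15 other erythroid markers summed to 3770 and 8785 RPM, between 11.5 and 7831 per cell at E10.5 and between 834 and 29127 at E13.5.

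Of the 54 genes on a list of globin regulators, which includes *Bcl11a* and *Sox6*, 49 reached 5 RPM in the mean of both stages, and 4 were 2-fold or more higher and 9 lower at E13.5, where 9.53% and 19.4% of all genes tested were so called, so both shares of the list were near the background. The retained cells gave 4 and 7. Their median log2 ratio was -0.24, beside -0.10 over all genes tested. Among 26 silencing factors and cofactors tested, 2 were higher, namely *Sox6* and *Zbtb7a*, which encodes the repressor LRF, at 126.8 and 291 RPM with pool log2 ratios from 0.96 to 1.49. The 3 lower silencing genes were *Nr2c1* (17.8 and 4.66 RPM), an orphan receptor gene, *Sin3a* (41.2 and 13.7), which encodes a corepressor scaffold, and *Nfia* (57.1 and 7.81), and the pools of each spanned both directions. Subunits of the NuRD complex such as *Chd4* (252 and 239 RPM) and *Mta2* (174.7 and 273) stayed under 2-fold.

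Among 16 activating and looping factors tested, 2 were higher (*Lmo2*, a bridging protein of the GATA1 complex, at 7.59 and 20.9 RPM, and *Bach1* at 8.28 and 24.3), and 2 lower (*Gata2*, and *Usf1* at 49.8 and 20.1). *Gata1* was at 299 and 482 RPM. Among 7 developmental timing genes tested, 0 were higher and 4 lower. These were the RNA-binding protein genes *Igf2bp1* (231 and 110.98 RPM, pool log2 ratios from -1.23 to -1.14), *Igf2bp2* (67.5 and 7.80, from -4.97 to -1.46) and *Igf2bp3* (106.3 and 44.5, from -1.02 to -0.83), and *Hmga2* (173.8 and 16.6), a chromatin protein gene, whose pools ran from -4.64 to 0.09. In the retained cells *Bach1*, *Gata2* and *Igf2bp1* were under 2-fold, with log2 ratios of 0.61, -0.67 and -0.99, and *Klf3*, a gene of the KLF family, passed it at 1.03 (0.99 over all cells). *Lin28b*, a let-7 repressor known to promote fetal-type erythropoiesis, was at 92.2 and 57.5 RPM. Among the 8 further globin genes of the table, *Hbq1b* at 0.448 and 11.7 RPM was the only one tested and was higher at E13.5, with 13 of 130 cells above 10 reads.

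Outside Klf1+ cells, globin reads were widespread but low in most cells. The 378 E10.5 cells with 10 or fewer *Klf1* reads had a summed globin level of 328 RPM with a median cell at 20.6, and those of E13.5 had 3881 RPM with a median of 58.6, against 1517 and 7224 RPM in Klf1+ cells. Those sums rested on few cells, as the E10.5 value was 156.1 RPM without pool 5 and the E13.5 value 599.7 RPM without pool 2. In retained cells the medians were 6.86 and 42.7 RPM. Cells with 1000 or more RPM of globin numbered 8 of 378 (2.12%) and 19 (17.4%). A single E10.5 cell held 59.2% of the reads of its class.

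**Figure D5:**
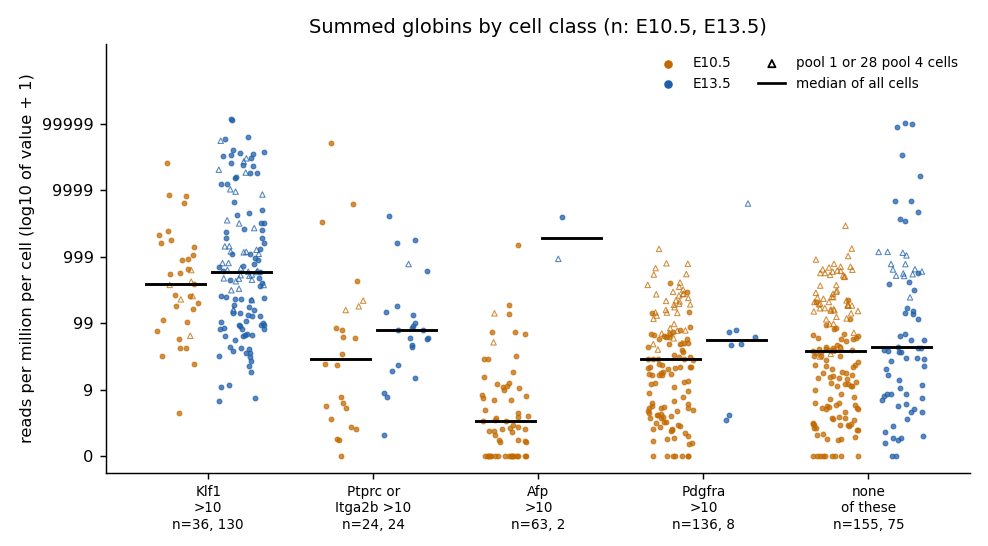
Summed RPM of the 7 globins in single cells (vertical axis, log10 of value + 1, labelled in RPM) by cell class at E10.5 (orange) and E13.5 (blue). Classes were assigned in order from left to right, n gives cells at E10.5 and E13.5, open triangles are cells of pool 1 or of the 4 pool 4 indices, and black bars are medians. Cells in none of the marker classes reach 102718 RPM at E13.5, beside 118788 RPM in Klf1+ cells, and E10.5 cells with *Afp* reads have the lowest median.

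The cells with high globin and few *Klf1* reads were of several kinds. At E13.5, 5 (4.59%) had 10000 RPM or more, all in pool 2, and the 3 highest were bulk cells at 102718, 100262 and 89845 RPM with 1, 3 and 0 *Klf1* reads, levels reached by 2 of the Klf1+ cells. Those 3 cells had 8, 4 and 4 of the 15 other erythroid markers above 10 reads and 0 of the hepatoblast markers. The first held 28702 *Hbb-bh1* reads beside 49422 *Hbb-bs*, 34445 *Hbb-bt* and 2904 *Sox6* reads, whereas the other 2 had 9 and 5 *Hbb-bh1* reads. At E10.5 the highest was a bulk cell of pool 5 at 51505 RPM with 73987 *Hbb-bh1*, 11846 *Hbb-bs* and 4796 *Hbb-bt* reads. It had 3 *Klf1* reads and 469 *Gata1* reads. It also had more than 10 reads of *Ptprc*, the gene of CD45, or of *Itga2b*, which was not a marker of the sort. Its beta-type reads were 81.7% embryonic. The E10.5 cell with most globin was thus outside the Klf1+ class, whose highest cell was at 25293 RPM.

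Cells with markers of other lineages differed in globin level. The 61 retained E10.5 cells with more than 10 reads of *Afp*, the fetal hepatocyte marker, were at a median of 1.97 RPM, and 16 of them had more than 10 globin reads. The 97 retained cells with *Pdgfra*, a mesenchymal receptor gene, were at a median of 11.4 RPM and at 24.3 RPM summed, with a highest cell at 404. Over all cells, the 24 E10.5 cells with *Ptprc* or *Itga2b* summed to 3338 RPM, with 27.96 in the median cell. The sum lay above that of Klf1+ cells but came mostly from 1 cell, the pool 5 cell at 51505 RPM. That cell held 84.5% of the embryonic beta-type reads of the 24 cells. At E13.5 the 2 *Afp* cells were at a median of 2467 RPM, above the Klf1+ median of 593. Of these 2, 1 was a retained cell at 4008 RPM and the other was of pool 1. The 8 *Pdgfra* cells of E13.5 summed to 1044 RPM with a median of 54.5, but 1 was a pool 1 cell at 6301 RPM. The 7 retained *Pdgfra* cells held 250 beta-type reads, against 6640 in all 8. An *Afp* cell of the E10.5 Lgr5-GFP+ group in pool 4 stood apart with 533 *Hba-x*, 1180 *Hbb-y* and 587 *Hbb-bh1* reads, 0 reads of both adult beta-type genes, 0 of *Klf1* and *Gata1*, and all 8 hepatoblast markers above 10 reads. It carried none of the 4 indices. In cells with 0 reads of both *Klf1* and *Gata1*, adult globin reads had a median of 37 in the 33 E10.5 cells of pool 1 and of 1, 3, 3 and 4 in pools 2 to 5.

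*Bcl11a* and *Sox6* were not limited to erythroid cells. Of the E10.5 cells with *Pdgfra*, 62 had more than 10 *Bcl11a* reads (45.6%) and 56 more than 10 *Sox6* reads (41.2%), at summed levels of 76.4 and 174.7 RPM. For *Sox6* this exceeded the 67.9 RPM of Klf1+ cells at the same stage. In *Afp* cells of E10.5 the counts were 1 and 2 of 63. At E13.5 the 8 *Pdgfra* cells had more than 10 reads of neither, which with so few cells allows a share of up to 37.5%. Of the 75 E13.5 cells in none of the marker classes, 7 had *Bcl11a* and 8 had *Sox6* above 10 reads.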

How the data were processed

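Raw counts of 54195 genes in 653 cells were used. The authors had aligned 50-base single-end Smart-seq2 reads to GRCm38.p6 with STAR 2.6.0c and Ensembl 93 annotation, and had counted uniquely aligned reads per gene with featureCounts of Subread 1.6.2. The deposited counts carry no molecular identifiers, so PCR copies were counted, and the intervals given cover counting error only. A deposited table of normalised values for fewer genes was not used. From the counts, reads were summed over the cells of a stage and divided by their total to give RPM, with exact 95% Poisson intervals, and shares of cells were given exact Clopper-Pearson intervals, except that a count of 0 was given the share that 3 cells would make as its upper limit. Genes under 5 RPM in the mean of both stages were left out of 2-fold calls. Uniquely mappable windows of 50 bases were computed from the reference transcripts. Promoters came from RefSeq.

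The labels name no animal, litter or sort day, so each stage was 1 sample, no p-value was computed, and the 5 library pools served as batches. Named genes were the 9 members, fixed lists of other globins and globin regulators, and the 5 genes nearest to each pattern by Spearman correlation among genes with more than 10 reads in at least 50% of Klf1+ cells. Members and lists were chosen with earlier results of these data known. Alternatives covered the *Klf1* threshold, thinning to 100000 reads per cell, sorts, pools, weighting and normalisation, while leaving out pool 1 with the 28 pool 4 cells, the top cell, or *Hbb-y* was added after the data had been seen. The computations were tested on simulated data and run in Python 3.11.15 with numpy 2.4.6, pandas 2.3.3, scipy 1.17.1 and matplotlib 3.10.9. A gene among those nearest to a pattern is not reported here.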

Additional observations from a re-analysis of the deposited data

Results flagged for a closer look

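Summed levels of the 9 genes were compared among the 5 library pools, used as batches, within Klf1+ cells of E13.5 and within the other cells of each stage. In 16 of the 27 sets 1 pool lay farther from the rest than Dixon's criterion for 5 values allows. None of those 16 was of *Bcl11a* or *Sox6*. The criterion served as a flag only and gives no chance rate here. A single cell can set the sum of a pool, and sets of different genes share the same cells.

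Pool 1 stood apart for *Hba-x* and *Hbb-y*. In Klf1+ cells of E13.5 it was at 194.1 RPM for *Hba-x*, with 11.7 in the next pool, and at 133.06 RPM for *Hbb-y*, with 20.2 in the next. In the other cells of E13.5 it was at 364 RPM of *Hba-x* and 545 RPM of *Hbb-y*, where the next pools were at 2.52 and 9.64. In the other cells of E10.5 it was at 185.9 RPM of *Hba-x*, 111.1 of *Hbb-y*, 22.1 of *Hba-a1* and 5.27 of *Hba-a2*, where the next pools were at 12.1, 25.2, 6.91 and 1.16.

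Pool 5 stood apart in the E10.5 cells with 10 or fewer *Klf1* reads, at 879 RPM of *Hbb-bh1*, 150.2 of *Hbb-bs* and 63.7 of *Hbb-bt*, with 141.5, 12.3 and 10.35 in the next pools. The single bulk cell with 73987 *Hbb-bh1* reads belongs to it. Pool 2 stood apart in the same cells of E13.5, at 4056 RPM of *Hbb-bs*, 2340 of *Hbb-bt*, 1517 of *Hba-a1*, 300.3 of *Hba-a2* and 580.4 of *Hbb-bh1*, and it held all 5 cells of this class above 10000 RPM of globin. The next pools were at 268, 171.7, 128.7, 25.96 and 46.3 RPM. The source of these reads was not tested.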

How the results depend on the processing

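Over 20 results there were 280 alternative values. Of these, 260 moved by less than the spread between pools, the counting interval or, for counts of genes, 1.5-fold. Another 18 moved by more, and 2 reversed a difference of 2-fold or more. For some results the spread between pools exceeded the value itself. It was 5.85 for the *Sox6* log2 ratio of 1.32, and 448 RPM for the 328 RPM of globin outside Klf1+ cells at E10.5. There a fall to 0 would not have counted as a move, so the 260 does not measure stability. The sign of the log2 ratio changed in 2 of 14 alternatives for *Hbb-y*, 2 for *Hba-x* and 4 for *Bcl11a* (-0.28 to 0.40), and in 0 for the other genes. *Hbb-y* (log2 ratio 1.41) was -4.40 without pool 1 and the 28 pool 4 cells and -0.85 without pool 1, and ranged to 2.33 over the pools left out. *Hba-x* (0.45) was -4.57 without those cells, 1.65 without the top cell of each stage, and -2.83 to 2.43 over the pools left out. Mostly embryonic E13.5 cells (13.2%) were 1.20% without those cells, 1.67% with *Hbb-bh1* alone, and 3.30% to 16.7% over the pools left out. At E10.5 (48.6%) the pools left out gave 30% to 51.9%. Weighting cells equally gave embryonic beta shares of 44.8% and 14.2% and an alpha share of 15.5% at E13.5. With any *Klf1* read in place of more than 10, the E10.5 alpha share was 62.97%, the E13.5 beta share 4.86%, the log2 ratios of *Hba-a1*, *Hba-a2* and *Hbb-bh1* 5.65, 5.63 and -1.91, and regulators higher at E13.5 numbered 10 instead of 4. Bulk cells alone gave 10452 RPM of globin outside Klf1+ cells at E13.5, against 3881. The cause was not tested. Lgr5-GFP+ cells alone gave no value for Klf1+ cells, since they numbered 1 and 4. No paired analysis was possible because replicate numbers only count cells and no test was made, while pools holding both stages gave the ratios within pools printed above. Pools 1 and 2 held 2 and 4 Klf1+ cells of E10.5, which limits every comparison within them, and depth per cell limits shares in cells with few globin reads.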

Other observations

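Lgr5-GFP+ cells with more than 10 *Klf1* reads were too few to compare between sorts, at 1 cell at E10.5 and 4 cells at E13.5. A cell of those 4, in pool 3, had 58484 RPM of globin with 20988 *Hbb-bs*, 30719 *Hbb-bt* and 10730 *Hba-a1* reads beside 1 read of *Hbb-bh1*, and 967 reads of *Sox6* and 415 of *Bcl11a*. The 4 cells together had 67770 beta-type reads, of which 3 were embryonic.

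Among the genes related to the members, *Hbq1b*, a theta-type globin gene, had more than 10 reads in 1 of 36 Klf1+ cells at E10.5 and 13 of 130 at E13.5. A retained E13.5 Klf1+ cell of pool 5 had 0 reads of *Hbb-y* and *Hbb-bh1*. It accounted for 97.2% of the *Hba-x* reads of the retained E13.5 Klf1+ cells.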
